A study of Macaca mulatta with 4 samples.

Results

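The thioredoxin and NRF2 redox genes described here are 10 genes of macaque morulae: TXNIP, ARRDC4, TXN, TXNRD1, SRXN1, GCLC, GCLM, HMOX1, NQO1 and SOD2. They were taken by symbol, each through its Ensembl macaque gene identifier, from a table of 21314 genes. Of the 10, 7 had a row in that table, and these 7 were among the 13227 genes that passed the filter on low counts. ARRDC4, TXN and SOD2 had no matched row and were not analysed here. A gene was called when its adjusted p was under 0.05 in edgeR's quasi-likelihood test over all tested genes.

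Thioredoxin, encoded by TXN, reduces oxidised proteins and is itself recharged by thioredoxin reductase, the product of TXNRD1, at the expense of NADPH. TXNIP binds thioredoxin and blocks it. TXNIP and ARRDC4 are alpha-arrestins that also draw glucose transporters off the cell surface, and in human and rodent cells their transcription follows glucose through the MondoA and MLX pair. NRF2, encoded by NFE2L2, is held in check by KEAP1 and switches on a shared set of antioxidant genes when cells meet oxidants or electrophiles. TXN, TXNRD1, SRXN1, GCLC, GCLM, HMOX1 and NQO1 are well-known members of that set in human and mouse.

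The libraries came from morulae of rhesus macaque (Macaca mulatta), the compacting ball of cells that precedes the blastocyst. The 2 GG libraries were made from gynogenetic embryos, whose nuclear genome is maternal only, and the 2 AG libraries from androgenetic embryos, whose nuclear genome is paternal only; neither group is an unmanipulated control. The labels give no further treatment, age or parental animal and do not make clear how many embryos entered each library, so the spread that p-values are based on is that between these libraries and may be technical. Totals were 21335918 and 29733977 estimated counts in GG replicates 1 and 2, and 14129608 and 19108735 in AG replicates 1 and 2. Levels below are in CPM, counts scaled to a TMM-adjusted total of 1000000 over the tested genes, and intervals and floors cover counting or replicate error only, since the labels name no molecular identifiers.

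Over all tested genes, 6.34% were called higher in GG and 6.58% lower. Of 7 tested epiblast markers, 3 were higher in GG (DPPA2, ESRRB and TFCP2L1), 2 were lower (KLF17 and DPPA4), and POU5F1 and NANOG were not called; POU5F1 stood at 465 and 479 CPM in GG against 181 and 389 CPM in AG, and NANOG at 129 and 141 CPM in GG against 151 and 25.0 CPM in AG. The list summed to 1165 and 1505 CPM in GG against 534 and 519 CPM in AG. DPPA2 alone had 488 and 820 CPM of these sums in GG, and 101 and 28.4 CPM in AG. Of 9 tested trophectoderm markers, 5 were called higher in GG: GATA2, KRT18, ELF3, CLDN4 and LRP2. CLDN4 had 51.2 and 110 CPM in GG against 0.142 and 0.254 CPM in AG, and LRP2 77.8 and 70.8 CPM against 0.570 and 0.914 CPM. The other 4 markers had negative log2 fold changes. None of these 4 was called by edgeR, but 3, TFAP2C, DAB2 and SLC7A2, were lower at an unadjusted p under 0.05 and were called lower by DESeq2. The edgeR adjusted p was 0.0779 for TFAP2C, 0.0960 for DAB2 and 0.0539 for SLC7A2. The list's summed levels were 486 and 829 CPM in GG against 302 and 377 CPM in AG. Of 7 tested primitive endoderm markers, 3 were called higher, APOE at 382 and 450 CPM in GG against 0.570 and 3.15 CPM in AG, LAMB1 and APOA1. None was lower by edgeR, at an unadjusted p under 0.05 or by DESeq2. The list summed to 577 and 643 CPM in GG against 138 and 202 CPM in AG, and APOE made up most of the GG sums. The uncalled markers GATA4, GATA6, HNF4A and PDGFRA had log2 fold changes of 0.36, 0.09, -0.25 and -0.38.

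Of 12 cumulus and granulosa markers, 8 had a row, 1 was tested (TNFAIP6, at 1.61 and 10.5 CPM in GG against 2.56 and 0.102 CPM in AG, not called), and FSHR and NR5A1 were at 0 counts in all 4 libraries. Of 8 blood markers, 5 were tested, with summed levels of 15.6 and 18.0 CPM in GG against 155 and 68.2 CPM in AG, and they differed in direction. PTPRC, a general blood cell gene, made up most of the AG sum, at 6.46 and 3.44 CPM in GG against 141 and 65.9 CPM in AG (log2 fold change -4.39 ± 0.57 SE, edgeR adjusted p = 0.0168). LYZ had 5.37 and 9.82 CPM in GG against 0.427 and 1.27 CPM in AG (3.13 ± 0.77 SE, adjusted p = 0.0533), and SPI1 had 0.807 and 0.511 CPM in GG against 0.214 and 0 CPM in AG; neither was called. The T cell gene CD3E had 0 counts in GG and 0 and 1 in AG. The part of these lineage and blood marker differences in the redox results was not tested.

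TXNIP, the thioredoxin inhibitor, and SRXN1, which encodes sulfiredoxin, were 12.7-fold and 7.69-fold higher in GG than in AG morulae. Of the 7 redox genes tested, these 2 were called higher in GG, where 6.34% of all tested genes were. None was called lower (edgeR; 2 were lower at an unadjusted p under 0.05, and DESeq2 called 2 lower), where 6.58% of all tested genes were, and 12.9% were called in either direction. The remaining 5 differed in direction: GCLC, GCLM and HMOX1 had positive and TXNRD1 and NQO1 negative log2 fold changes. Both GG libraries lay above both AG libraries in 4 of the 7, as in 33.4% of all tested genes, and below them in 2, as in 30.7%. The median log2 fold change of the 7 was 1.96, the value of the uncalled GCLC, against 0.04 over all tested genes. The genes were chosen with earlier results of these data known, so these shares and the median describe them and test no shift. In bulk libraries, fewer cells expressing a gene and less RNA per cell cannot be told apart.

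**Figure D1:**
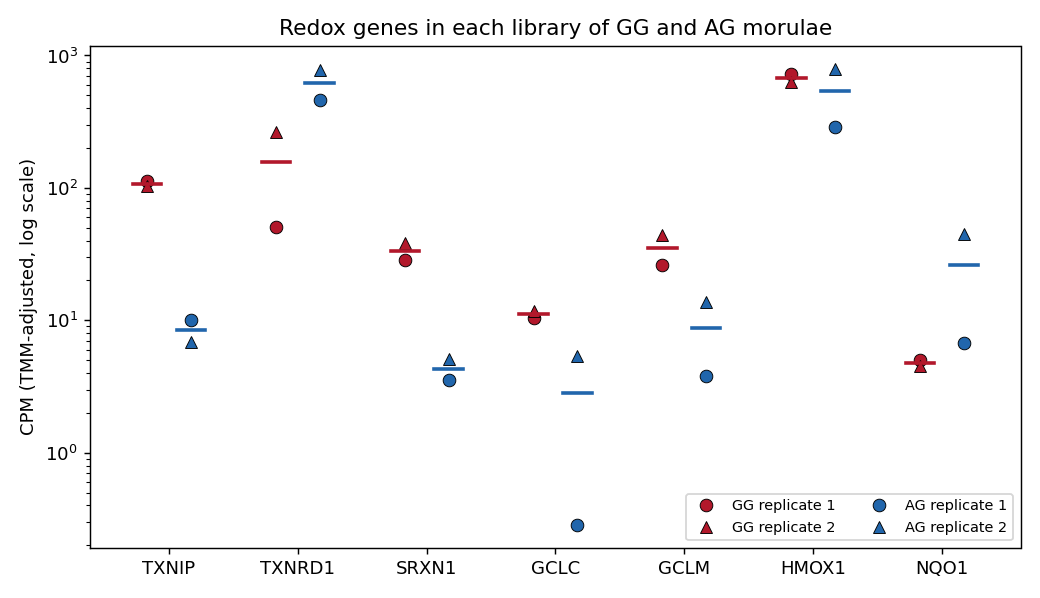
Level of each of the 7 measured redox genes in CPM (log axis) in the 2 GG libraries (red, left) and the 2 AG libraries (blue, right) of each gene; circles are replicate 1, triangles replicate 2, and bars the group mean. TXNIP and SRXN1 show a wide gap between the groups and close replicates, whereas GCLC and NQO1 are spread within AG and TXNRD1 within GG.

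TXNIP (ENSMMUG00000007338) had 112 and 103 CPM in GG replicates 1 and 2, from 2360 and 3016 counts, against 10.1 and 6.86 CPM in AG replicates 1 and 2, from 142 and 135 counts. The lowest GG library stood 10.2-fold above the highest AG library, and the groups did not overlap. The means were 107 ± 6.53 CPM in GG and 8.49 ± 2.30 CPM in AG (SD, n = 2 each). The log2 fold change was 3.66 ± 0.36 SE (95% interval 2.78 to 4.55), a 12.7-fold difference, with an edgeR adjusted p of 0.00871. By size, it exceeded 93.2% of the fold changes of all tested genes. The call rested on having both GG libraries: without GG replicate 1 or 2 the adjusted p was 0.0643 and 0.0658 at log2 fold changes of 3.61 and 3.69, in fits that called 119 and 84 genes in all.

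TXNRD1 (ENSMMUG00000012091), the cytosolic thioredoxin reductase, went the other way in these libraries. It had 50.6 and 262 CPM in GG replicates 1 and 2 against 458 and 773 CPM in AG replicates 1 and 2. Both GG libraries were below both AG libraries, but the GG libraries differed from each other 5.18-fold. The difference between the GG libraries was wider, on the log2 scale, than that of 99.5% of tested genes. TXNRD1 was not called by edgeR (log2 fold change -1.98 ± 0.76 SE, 95% interval -3.86 to -0.09, unadjusted p = 0.0429, adjusted p = 0.142). DESeq2, which called 23.3% of the genes it tested, gave an adjusted p of 0.0234. Without GG replicate 1 the log2 fold change was -1.23 and without GG replicate 2 it was -3.63, in neither case called (edgeR adjusted p = 0.297 and 0.0661).

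SRXN1 (ENSMMUG00000047391), whose product repairs overoxidised peroxiredoxins, had 28.5 and 38.1 CPM in GG replicates 1 and 2 against 3.56 and 5.08 CPM in AG replicates 1 and 2. The counts behind these levels were 601 and 1118 in GG and 50 and 100 in AG. The lowest GG library was 5.62-fold above the highest AG library. The means were 33.3 ± 6.77 CPM in GG and 4.32 ± 1.07 CPM in AG (SD, n = 2 each), a 7.69-fold difference (log2 fold change 2.94 ± 0.42 SE, 95% interval 1.91 to 3.98, edgeR adjusted p = 0.0191). Without GG replicate 1 or 2, SRXN1 lost its call, as did most genes called over all tested genes, at log2 fold changes of 3.14 and 2.69.

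GCLC and GCLM encode the catalytic and the modifier subunit of glutamate-cysteine ligase, the enzyme of the rate-limiting step of glutathione synthesis. GCLC (ENSMMUG00000008684) had 10.4 and 11.7 CPM in GG replicates 1 and 2 against 0.285 and 5.33 CPM in AG replicates 1 and 2, the AG levels resting on 4 and 105 counts. The GG libraries were alike and above both AG libraries, which differed from each other 18.7-fold. GCLC was not called (log2 fold change 1.96 ± 1.14 SE, 95% interval -0.86 to 4.78, edgeR adjusted p = 0.293). Without AG replicate 2 the log2 fold change was 5.24, and without AG replicate 1 it was 1.05.

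GCLM (ENSMMUG00000013857) had 26.2 and 44.3 CPM in GG replicates 1 and 2 against 3.78 and 13.8 CPM in AG replicates 1 and 2. The groups did not overlap, the lowest GG library being 1.90-fold above the highest AG library. Its log2 fold change of 2.001 ± 0.68 SE (95% interval 0.32 to 3.69) was close to that of GCLC and was not called by edgeR (unadjusted p = 0.0274, adjusted p = 0.107). The adjusted p was 0.0138 with DESeq2. Without AG replicate 2 the log2 fold change was 3.21, whereas without AG replicate 1 it was 1.35.

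HMOX1 (ENSMMUG00000007221), which encodes the inducible haem oxygenase, had 730 and 630 CPM in GG replicates 1 and 2 against 288 and 794 CPM in AG replicates 1 and 2. The AG libraries lay on either side of the GG libraries, so the groups overlapped. The log2 fold change was 0.33 ± 0.48 SE (edgeR adjusted p = 0.677), with a 95% interval of -0.85 to 1.51 that leaves room for a difference either way. Its sign depended on the AG library: the log2 fold change was -0.23 without AG replicate 1 and 1.22 without AG replicate 2.

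NQO1 (ENSMMUG00000019684), a quinone reductase, was low in 3 of the 4 libraries. It had 4.99 and 4.50 CPM in GG replicates 1 and 2 against 6.77 and 45.1 CPM in AG replicates 1 and 2. Both GG libraries were below both AG libraries, but AG replicate 1 was nearer to GG than to AG replicate 2, and the AG libraries differed 6.66-fold. NQO1 was not called by edgeR (log2 fold change -2.45 ± 0.88 SE, 95% interval -4.64 to -0.26, unadjusted p = 0.0341, adjusted p = 0.122) and had an adjusted p of 0.0129 with DESeq2. Without AG replicate 2 its log2 fold change was -0.53, and without AG replicate 1 it was -3.26.

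**Figure D2:**
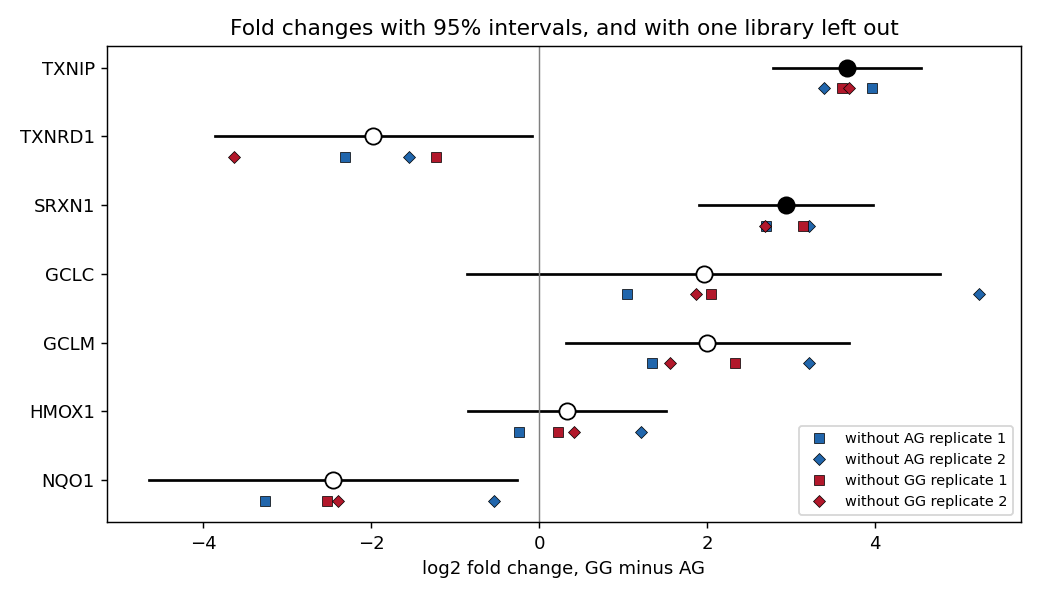
Log2 fold change, GG minus AG, of the 7 redox genes with its 95% interval (circle and line; filled where called over all tested genes) and, beneath each, the fold change with 1 library left out (blue: an AG library; red: a GG library). TXNIP stays between 3.39 and 3.96 and SRXN1 between 2.69 and 3.21, while GCLC ranges between 1.05 and 5.24 and HMOX1 between -0.23 and 1.22.

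For these 7 genes, differences of 2-fold or more between the libraries of a group were more frequent in AG. In 6 of the 7, all but TXNIP, AG replicate 2 was above AG replicate 1, as in 53.1% of all tested genes. In 4 of the 7, GCLC, NQO1, GCLM and HMOX1, it was above by 2-fold or more (18.7-fold, 6.66-fold, 3.65-fold and 2.76-fold), as in 18.8% of tested genes. TXNRD1 and SRXN1 were 1.69-fold and 1.43-fold higher in AG replicate 2, and TXNIP was 1.48-fold higher in AG replicate 1. In GG, TXNRD1 alone of the 7 differed by 2-fold or more between replicates. The median difference between replicates over all tested genes was 1.25-fold in GG and 1.44-fold in AG. NFE2L2, the gene of NRF2 itself, was at 138 CPM in AG replicate 2 and 44.7 CPM in AG replicate 1. In GG it was at 79.5 CPM in replicate 2 and 70.4 CPM in replicate 1. Of the 31 tested genes of the NRF2 target list, which holds 6 of the 7, AG replicate 2 was the higher in 23 (74.2%, against 53.1% of all tested genes). It was higher by 2-fold or more in 9 (29.0%, against 18.8%). These 9 include GCLC, NQO1, GCLM and HMOX1, already counted above, and otherwise SLC7A11, BLVRA, AKR1B10, PIR and FECH. The counts of this list are therefore not separate from those of the 7 genes. In GG, replicate 2 was the higher in 25 of the 31 (80.6%, against 50.0% of all tested genes), and 9 were higher by 2-fold or more (29.0%, against 10.3%).

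**Figure D3:**
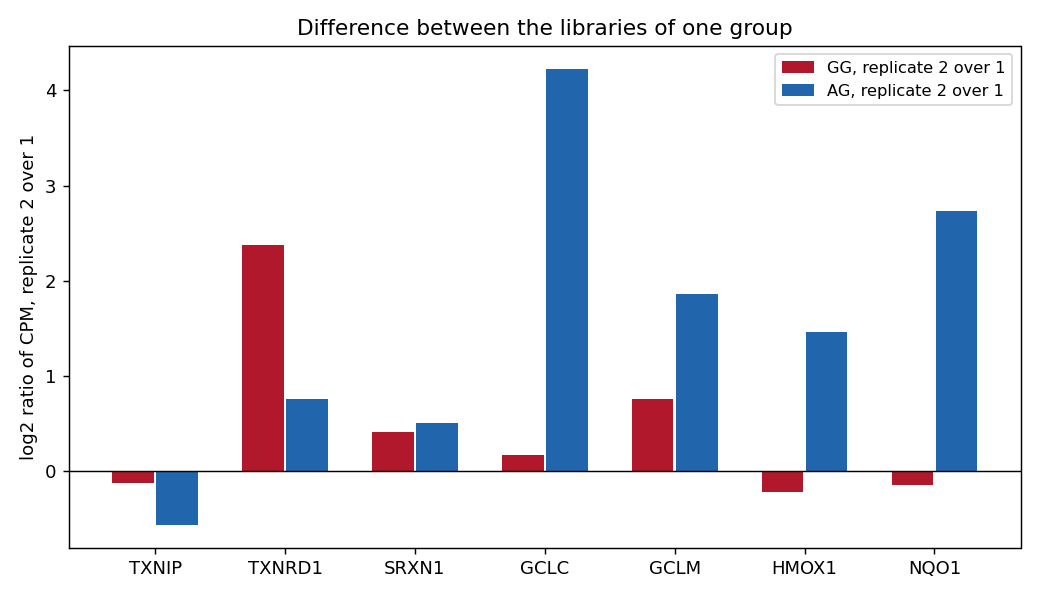
Log2 ratio of replicate 2 to replicate 1 in CPM for each of the 7 redox genes, in GG (red, left) and in AG (blue, right); bars start at 0, which means equal levels. The AG ratios of GCLC, NQO1, GCLM and HMOX1 are the tallest in AG, and in GG that of TXNRD1 is.

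The other genes of these pathways were taken from 6 lists, 98 genes besides the 10, which overlap one another. Of these 98, 86 had a row and 84 were tested; 9 (10.7%) were called higher in GG, against 6.34% of all tested genes, and 6 (7.14%) lower, against 6.58%. The single lists below hold between 9 and 31 tested genes, and their counts are to be read against the same shares. The median log2 fold change of the 84 was 0.38. The lists, too, were chosen with earlier results of these data known, so these values describe them and test no shift. Each called gene is named below; the uncalled ones named, NFE2L2 above included, were chosen after their values were seen.

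Among alpha-arrestins and genes of glucose sensing, 2 of 9 tested were higher in GG, TXNIP and ARRDC3, and 2 were lower, ARRDC2 and MLX, with 5 not called and a median log2 fold change of 0.69, also with ARRDC2 at its bound. ARRDC3, an alpha-arrestin that acts in receptor trafficking, had 13.4 and 9.65 CPM in GG against 0.641 and 0.254 CPM in AG (log2 fold change 4.71 ± 0.70 SE, edgeR adjusted p = 0.0209). ARRDC2, of the same family, had 0 counts in both GG libraries against 79 and 126 counts in AG. With 3 counts over the GG group as a floor, it was at least 102-fold lower in GG (edgeR adjusted p = 0.0176). The 3 measured alpha-arrestins called between the groups thus differed in direction. ARRDC1, of the same family, had 22.4 and 26.4 CPM in GG against 11.6 and 10.2 CPM in AG. It was not called (log2 fold change 1.16 ± 0.36 SE, edgeR adjusted p = 0.0867).

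MLX, the partner through which MondoA binds DNA, had 20.2 and 19.6 CPM in GG against 70.7 and 66.2 CPM in AG, with no overlap (log2 fold change -1.78 ± 0.30 SE, edgeR adjusted p = 0.0258). MLXIP, the gene of MondoA, was at 1.57 and 0.852 CPM in GG and 0.356 and 1.12 CPM in AG and was not called. The glucose transporter gene SLC2A3, a further gene of this list, had 796 and 844 CPM in GG against 1156 and 1646 CPM in AG and was not called (edgeR adjusted p = 0.0979). SLC2A1, also a glucose transporter gene, overlapped between the groups, with 6.93 and 19.9 CPM in GG and 1.42 and 9.95 CPM in AG.

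Of the 19 tested genes of thioredoxins, peroxiredoxins, glutaredoxins and methionine sulfoxide reductases, 3 were higher in GG (TXNIP, SRXN1 and PRDX3), 1 was lower (TXNRD2) and 15 were not called; the median log2 fold change was 0.53. PRDX3, a mitochondrial peroxiredoxin, had 557 and 750 CPM in GG against 148 and 142 CPM in AG (log2 fold change 2.17 ± 0.26 SE, edgeR adjusted p = 0.0134). TXNRD2, the mitochondrial thioredoxin reductase, had 2.09 and 2.15 CPM in GG against 13.7 and 18.3 CPM in AG (log2 fold change -2.92 ± 0.47 SE, edgeR adjusted p = 0.0240). TXN2, the mitochondrial thioredoxin, overlapped, with 136 and 163 CPM in GG and 106 and 183 CPM in AG. TXN2, TXNRD2 and PRDX3 lay at different log2 fold changes, 0.05, -2.92 and 2.17. PRDX5, also a peroxiredoxin of mitochondria, had a log2 fold change of -1.41, opposite in sign to PRDX3. Both its GG libraries were below both AG libraries, but it was not called (edgeR adjusted p = 0.227).

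Of 19 tested glutathione genes, 4 were higher in GG and 15 were not called. None was lower by edgeR, where 4 were at an unadjusted p under 0.05, and DESeq2 called 3 lower. The 4 were MGST2, a microsomal glutathione transferase; GSTZ1, a transferase of tyrosine breakdown; CHAC2, which degrades glutathione; and GPX3, the secreted glutathione peroxidase. MGST2 had 64.9 and 112 CPM in GG against 12.3 and 6.91 CPM in AG (log2 fold change 3.21 ± 0.48 SE), and CHAC2 had 23.6 and 36.7 CPM against 5.84 and 4.06 CPM (2.61 ± 0.45 SE). GSTZ1 had 49.1 and 130 CPM in GG against 5.41 and 15.8 CPM in AG (3.06 ± 0.72 SE), and GPX3 had 5.08 and 6.21 CPM against 0.784 and 0.863 CPM (2.77 ± 0.60 SE). The edgeR adjusted p was 0.0209 for MGST2, 0.0269 for CHAC2, 0.0478 for GSTZ1 and 0.0410 for GPX3. The list's median log2 fold change was 0.68.

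Among the regulators of NRF2, 1 of 15 tested was lower in GG and 14 were not called. None was higher by edgeR, where 1 was at an unadjusted p under 0.05, and DESeq2 called 1 higher. NFE2L2 had 70.4 and 79.5 CPM in GG, between the 44.7 and 138 CPM of AG, and a log2 fold change of -0.29 ± 0.54 SE. KEAP1 had 11.2 and 21.6 CPM in GG and 11.8 and 21.1 CPM in AG, overlapping throughout. The called gene was NFE2L3, an NRF2 relative, at 2.52 and 1.33 CPM in GG against 8.19 and 16.4 CPM in AG (log2 fold change -2.68 ± 0.63 SE, edgeR adjusted p = 0.0489). The median log2 fold change of the list was -0.29.

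Among 31 tested NRF2 targets, 4 were higher in GG by edgeR (SRXN1, FTH1, OSGIN1 and PIR), 1 was lower (ABCC4) and 26 were not called. At an unadjusted p under 0.05 in edgeR, 8 were higher and 6 lower, and DESeq2 called 6 higher and 6 lower. The median log2 fold change was 0.36. FTH1, the ferritin heavy chain that stores iron, had 5378 and 5883 CPM in GG against 731 and 739 CPM in AG (log2 fold change 2.94 ± 0.21 SE, edgeR adjusted p = 0.00506). In human, FTH1 has many processed copies, so its estimated counts are uncertain. OSGIN1, an oxidative stress response gene, had 3.56 and 7.43 CPM in GG against 0.427 and 0.508 CPM in AG, and PIR, which encodes pirin, 14.9 and 51.7 CPM against 0.285 and 1.42 CPM (log2 fold changes 3.53 ± 0.73 and 5.23 ± 0.99 SE; edgeR adjusted p = 0.0373 and 0.0321). ABCC4, an efflux pump gene, had 0.522 and 0.750 CPM in GG against 18.0 and 4.77 CPM in AG (-4.14 ± 0.85 SE, adjusted p = 0.0371).

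Of 10 tested genes of superoxide and peroxide removal, PRDX3 was higher in GG, TXNRD2 and HMOX2 were lower, and 7 were not called, with a median log2 fold change of 0.25. HMOX2, the constitutive haem oxygenase, had 192 and 172 CPM in GG against 635 and 466 CPM in AG (log2 fold change -1.59 ± 0.26 SE, edgeR adjusted p = 0.0248), whereas HMOX1 was not called. Of the 15 called genes of the lists outside the 10, all kept their sign when 1 library was left out. Without GG replicate 1 or without GG replicate 2, all except FTH1 lost their call, as did most of the genes called over all tested genes. GSTZ1 and ABCC4 also lost their call without AG replicate 1, and NFE2L3 without AG replicate 2.

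**Figure D4:**
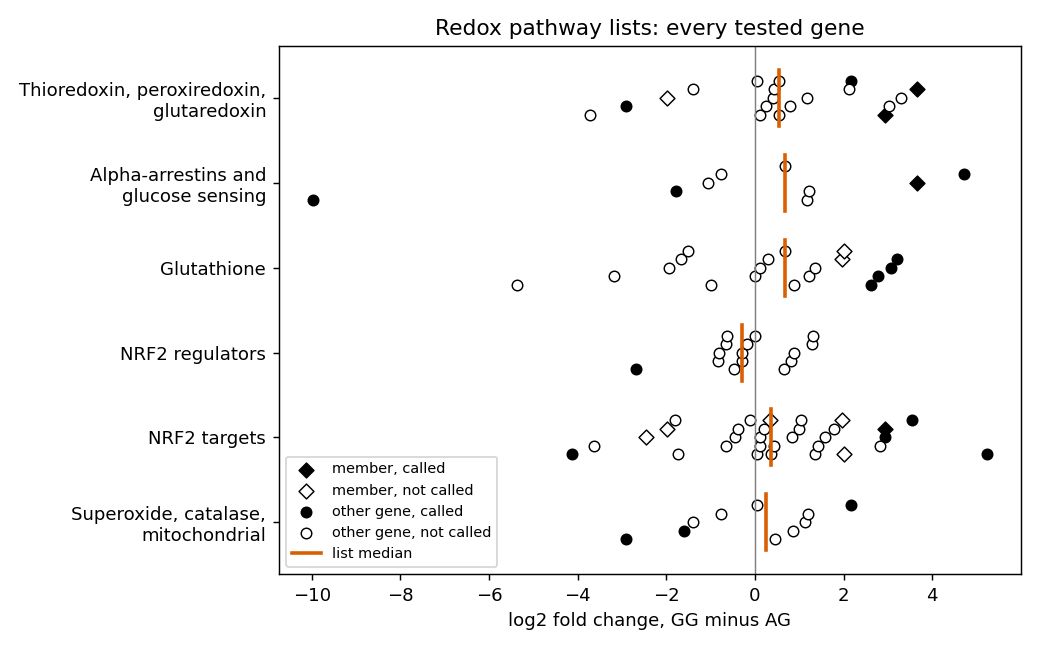
Fitted log2 fold change, GG minus AG, of every tested gene of the 6 pathway lists; diamonds are genes among the 10, circles other genes, filled symbols called genes, and orange lines list medians. The lists spread to both sides of 0. Among NRF2 targets, 4 filled symbols lie to the right and 1 to the left, where DESeq2 called 6 higher and 6 lower in GG. The point far to the left is ARRDC2, which had 0 counts in GG and whose fitted value is no measured size.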

How the data were processed

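RNA was measured in 4 libraries, with cDNA amplified from very low input by a SMARTer kit, per the labels' protocols. The authors deposited estimated counts per Ensembl macaque gene, not scaled to depth; 30.0% to 32.2% of the values in a library were not whole. Per the submitters' processing notes, which give neither role nor order, the build was rheMac8 and the tools were Salmon 0.12.0, STAR 2.6.0c and Trim Galore. The sources used here do not give the annotation release, strand setting or filters. Such counts share out reads among similar transcripts, so genes with near copies are uncertain. No coordinates are given, since no annotation of that build was used.

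Identifiers matched a symbol for 14654 of 21314 genes (68.8%). Counts were rounded and tested with edgeR 4.0.16 in R 4.3.3 (filterByExpr by group, minimum count 10 and minimum total 15; TMM; quasi-likelihood F test on group alone; Benjamini-Hochberg adjustment over all tested genes). Standard errors and 95% intervals are those implied by the F statistic; means carry the SD over 2 libraries. The test was checked on simulated data. Of the listed genes, the text names every called one; uncalled ones were picked after their values were seen. DESeq2 1.42.0 and 10 further settings were alternatives. The 10 genes and the lists were chosen with earlier results of these data known.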

Additional observations from a re-analysis of the deposited data

How the results depend on the processing

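TXNIP and SRXN1 kept their direction in all 11 alternative fits and their call in 9 of them. The calls ended without GG replicate 1 or 2; with 1 library left out, the log2 fold change of TXNIP lay between 3.39 and 3.96 and that of SRXN1 between 2.69 and 3.21. The other 5 genes changed more, and their calls are given here only for fits that kept all 4 libraries. TXNRD1 was called with no filter on low counts (log2 fold change -1.99), with DESeq2 (-1.97) and with the replicate block (-2.37). NQO1 was called with no filter (-2.47) and with DESeq2 (-2.45), and lay between -3.26 and -0.53 with 1 library left out. GCLM was called with no filter (1.99), with DESeq2 (2.01) and with the replicate block (2.22), and lay between 1.35 and 3.21 with 1 library left out. GCLC lay between 1.05 and 5.24 and HMOX1 between -0.23 and 1.22, reversed without AG replicate 1. GCLC gave no value at a minimum mean of 10 CPM. The cause of these changes was not tested. Neither of the other scalings turned the direction of any of the 7 genes.

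Of the 7 genes, 2 were called higher in GG, and between 0 and 5 with 1 library left out. None was called lower in the main edgeR fit, against 2 with no filter, 2 with DESeq2 and 1 with the replicate block. Over all tested genes, 839 were called higher in GG, 1630 with DESeq2 and between 49 and 2007 with 1 library left out. The 870 called lower became 1360 with no filter, 1711 with DESeq2 and between 35 and 1779 with 1 library left out. Of the listed genes outside the 10, 9 were higher and 6 lower; the alternatives gave between 1 and 21 and between 0 and 14. By list, the alternatives gave 0 to 5 higher and 0 to 3 lower thioredoxin genes, 0 to 3 and 0 to 4 alpha-arrestin and glucose genes, 0 to 9 and 0 to 3 glutathione genes, 0 to 2 and 0 to 2 NRF2 regulators, 1 to 11 and 0 to 6 NRF2 targets, and 0 to 2 and 0 to 2 superoxide genes. The replicate block (edgeR, 1697 genes called, 1430 of them among the 1709 called without it) ended the calls of GPX3 (adjusted p = 0.0587) and NFE2L3 (0.0667). The labels give the libraries no more than a shared number, and deviations of same-numbered libraries correlated at 0.106 across genes.

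With 1 library left out, the lone library is assumed to vary like the other group. No gene among the 10 had several identifiers, so summing identifiers was not run, nor were sequence comparisons. The level of GCLC in AG replicate 1 rests on 4 counts.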

Other observations

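Several genes of the lists stood apart in 1 library and were not called; they were chosen after their values were seen. GSTK1, a mitochondrial and peroxisomal glutathione transferase, had 3.13 and 4.36 CPM in GG replicates 1 and 2 against 2.56 and 66.0 CPM in AG replicates 1 and 2. AKR1B10, an aldo-keto reductase known as an NRF2 target in human, had 121 and 87.6 CPM in GG against 112 and 589 CPM in AG; it has near copies and is uncertain. CHAC1, a glutathione-degrading enzyme of the stress response, had 1.76 and 0 CPM in GG against 13.1 and 56.8 CPM in AG (edgeR adjusted p = 0.0901), opposite in sign to its relative CHAC2. In GG, PRDX5, a peroxiredoxin of mitochondria and peroxisomes, had 22.3 CPM in replicate 1 and 97.8 CPM in replicate 2, against 121 and 198 CPM in AG. GSTP1, a cytosolic glutathione transferase, had 94.9 and 277 CPM in GG against 829 and 350 CPM in AG. The cause of these differences between libraries was not tested.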
